A study of Arabidopsis thaliana with 8 samples.

Results

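In seedlings of *Arabidopsis thaliana*, 73 genes were moved in opposite directions by heat and by lack of oxygen (anoxia). They were chosen by the measured values themselves. A probe set, the group of array probes that reads 1 transcript, was taken when its mean log2 intensity differed from the control mean by at least 1 in heat and by at least 1 in anoxia, with opposite signs. Neither the 2 heat arrays nor the 2 anoxia arrays were allowed to overlap with the 2 control arrays. Of 22746 probe sets other than array controls, 14535 had a log2 intensity of at least 4 on at least 2 arrays, and 7714 of these (53.1%), from 7633 genes, carry the name of 1 nuclear gene. The 73 members are 73 different genes, of which 27 were raised by heat and lowered by anoxia and 46 were lowered by heat and raised by anoxia. Another 57 probe sets met the same numeric criteria without the name of 1 nuclear gene.

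The study measured RNA of whole seedlings of the ecotype Columbia 0, in 4 groups of 2 biological replicates, with 1 Affymetrix ATH1 array for each of the 8 samples. All seedlings were 4 days old and had grown in darkness at 23 °C in liquid half-strength Murashige-Skoog medium with 30 mM sucrose. One group was heated at 38 °C for 90 minutes and then held under anoxia for 6 hours, one was only heated for 90 minutes, one was only held under anoxia for 6 hours at 23 °C, and the control was left untreated. The combined treatment thus ended 6 hours after the heat, and no group heated and then kept in air was analysed here. In whole seedlings, fewer cells of a type and less RNA per cell cannot be told apart.

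In plants, heat activates heat shock transcription factors, which switch on genes of chaperones that hold and refold unfolding proteins. Lack of oxygen stops mitochondrial respiration, and transcription factors of the ethylene response factor family, which are destroyed while oxygen is present, then switch on fermentation and a core set of hypoxia genes. Both stresses also curtail the synthesis of most other proteins, and a heat treatment is known to raise the survival of *Arabidopsis* seedlings under later anoxia.

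Intensities are on the log2 scale throughout, and differences are differences of group means on that scale. Replicates correlated at 0.965 to 0.979 across probe sets. Over all 14535 probe sets the median difference was -0.33 for heat then anoxia against control, -0.05 against heat and -0.31 against anoxia. For the single stresses against control it was -0.22 in heat and -0.01 in anoxia. Single differences should be read against these medians. The signal of 25S ribosomal RNA stood at 11.46 on the second heat then anoxia array and at 12.19 on the second anoxia array, against 2.79 to 6.58 on the other 6 arrays. Its part in the results was not tested beyond leaving out these 2 arrays.

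The chosen differences are given here as a description, with no test. In the 27 genes raised by heat, heat minus control ran from 1.01 to 4.86 with a median of 1.85, and anoxia minus control from -2.79 to -1.02 with a median of -1.40. In the 46 genes lowered by heat, heat minus control ran from -4.46 to -1.03 with a median of -1.88, and anoxia minus control from 1.08 to 6.74 with a median of 1.44. The limma fit over all probe sets (adjusted p below 0.05 and at least 2-fold) called both differences with these signs in 15 of the 27 genes and in 16 of the 46, against 0.2% and 0.241% of all probe sets. It called the heat difference in 25 of 27 genes (10.5% of all were higher in heat) and in 36 of 46 (17.9% were lower), and the anoxia difference in 15 of 27 (5.92% were lower in anoxia) and in 19 of 46 (3.95% were higher). Since these differences chose the genes, nothing is read from those counts. The member closest to the threshold among genes raised by heat was AT3G18170, a glycosyltransferase gene, at 1.01 in heat and -1.18 in anoxia, and AT3G05990 fell just outside it at 0.99 and -1.08. Among genes lowered by heat, the acylhydrolase gene DLAH was just inside at -1.03 and 1.45, and AT2G16005 was just outside at -1.93 and 0.997. DLAH was also the 1 member that reached the minimum of 4 on arrays of a single group, anoxia.

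**Figure D1:**
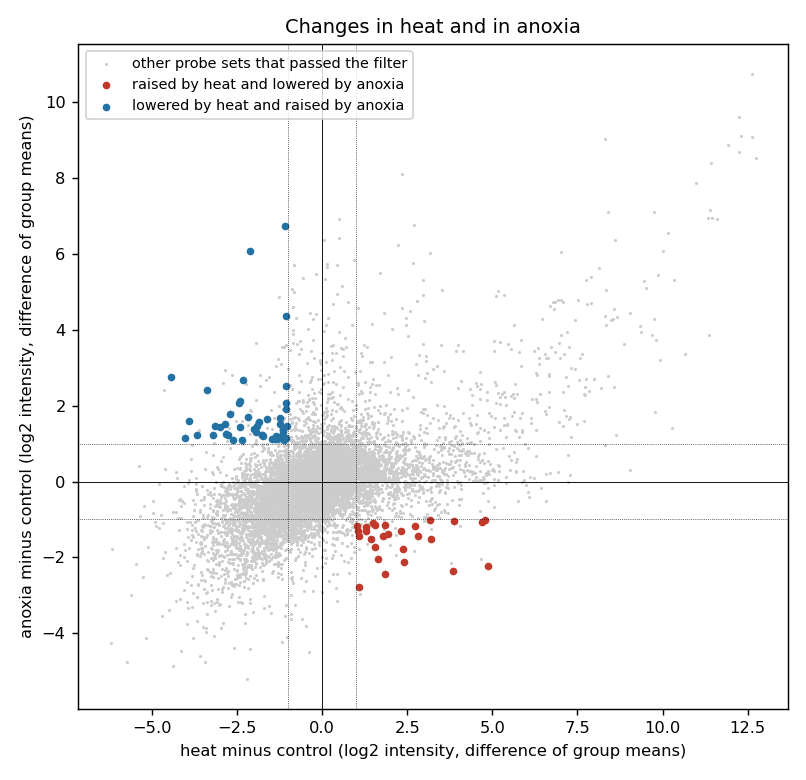
Difference from control in heat (x axis) and in anoxia (y axis), both as log2 intensity, for the 14535 probe sets that passed the filter. The 27 genes raised by heat and lowered by anoxia (red) lie at the lower right and the 46 genes lowered by heat and raised by anoxia (blue) at the upper left, outside dotted lines at a size of 1.

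The heat then anoxia arrays took no part in the criteria on differences. They counted towards the filter, which every member also passed without them. They therefore show which of the opposite levels the RNA stood nearer at the end. Without a group heated and then kept in air, they do not show which response was active. The heat, anoxia and control arrays with which the combined treatment is compared were those used in the choice, and the 3 comparisons share arrays. A position was computed for each gene, the heat then anoxia mean minus the anoxia mean, divided by the heat mean minus the anoxia mean. It is 0 at the anoxia level and 1 at the heat level.

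Among the 27 genes raised by heat and lowered by anoxia, the combined treatment left 25 (92.6%) nearer their heat level. The median position was 0.97, with a range of 0.10 to 1.52, and 23 genes lay at 0.75 or above. Against anoxia alone, 26 of the 27 were higher in heat then anoxia by limma, where 12.8% of all probe sets were, and the median difference was 3.61. The 27 were chosen for low anoxia values, so this share and that of all probe sets are not like for like. Against control, 21 of 27 were higher, where 15.2% of all probe sets were, with a median difference of 2.15. The 27 were chosen with heat at least 1 above these control arrays, so these shares are not like for like either. None of the 27 was lower than control or lower than anoxia in limma, where 25.4% and 17.2% of all probe sets were, also at an unadjusted p below 0.05 (0 and 0 genes). The choice of low anoxia values left little room for a level below anoxia, so nothing is read from that 0. Against heat alone, 2 were higher and 3 lower, where 5.13% and 4.66% of all probe sets were, and the median difference was -0.14. A call was missed in 22 of the 27 in that comparison, which does not show equal levels. In 11 of these genes the anoxia mean lay below the filter minimum of 4, near array background, so the size of their difference from anoxia depends on the background model.

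**Figure D2:**
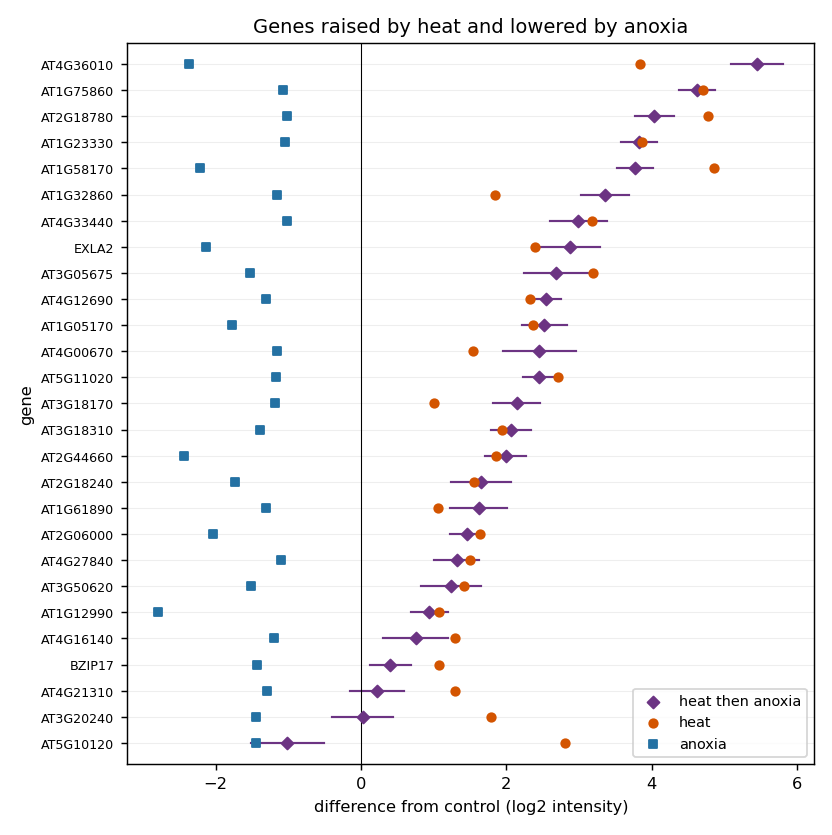
Difference from control (log2 intensity, x axis) of the 27 genes raised by heat and lowered by anoxia, with heat then anoxia as diamonds with the standard error of the limma fit, heat as circles and anoxia as squares. The diamonds lie close to the circles in most genes and to the square in AT5G10120.

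The genes are described by role, in an order made after the values were seen and tested for no enrichment. Families of secreted and cell wall proteins occur in both directions. AT4G36010 encodes a thaumatin-like protein, a family of secreted proteins that are often induced by stress. It measured 13.63 and 13.65 on the heat then anoxia arrays, 12.47 and 11.57 in heat, 5.91 and 5.74 in anoxia, and 8.54 and 7.83 in control. No group overlapped with another, and the combined treatment stood above heat alone while anoxia alone stood below control. The combined treatment exceeded control by 5.46 ± 0.36 (SE; limma adjusted p = 2.02e-05), the highest of the 27. Heat then anoxia minus heat was 1.62 ± 0.36 (limma adjusted p = 0.0302), a call that was lost without heat replicate 2 (1.17, adjusted p = 0.143) and without heat then anoxia replicate 1 or 2 (0.101 and 0.138).

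AT1G58170 encodes a dirigent-like protein, of a family that directs the coupling of lignin-type alcohols. Its values were 9.92 and 10.19 in heat then anoxia, 10.92 and 11.39 in heat, 4.14 and 4.01 in anoxia, and 6.27 and 6.31 in control. The 4 groups were again apart, here with the combined treatment slightly below heat. It exceeded control by 3.77 ± 0.25 (limma adjusted p = 2.07e-05) and lay 1.10 ± 0.25 below heat (log2 difference -1.10, limma adjusted p = 0.0327). The call against heat was lost whenever 1 of the heat, control or heat then anoxia arrays was left out (adjusted p 0.0529 to 0.168).

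EXLA2, an expansin-like protein related to wall-loosening proteins, measured 10.06 and 9.67 in heat then anoxia, 9.88 and 8.88 in heat, 4.55 and 5.15 in anoxia, and 7.28 and 6.68 in control. The combined arrays overlapped with the heat arrays and lay above all others. The combined treatment exceeded control by 2.88 ± 0.40 (limma adjusted p = 0.000871). AT1G32860, of the beta-1,3-glucanase family that cuts callose, was the other gene higher than in heat alone, at 8.15 and 8.94 in heat then anoxia, 7.31 and 6.76 in heat, 4.20 and 3.86 in anoxia, and 5.18 in both controls. Its difference from heat was 1.51 ± 0.33 (limma adjusted p = 0.029), lost without heat replicate 1 or 2 (0.0668 and 0.15) or heat then anoxia replicate 2 (0.161). It was named after its values were seen, as were AT4G33440, AT1G12990, AT1G61890 and AT5G11020 below. The pectin lyase-like gene AT4G33440 stood 2.99 ± 0.39 above control in the combined treatment (limma adjusted p = 0.000635).

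AT2G44660, of the family of glucosyltransferases that build the sugar chain of N-linked glycoproteins, measured 8.38 and 8.70 in heat then anoxia, 8.59 and 8.21 in heat, 4.40 and 3.82 in anoxia, and 6.56 and 6.54 in control. Its heated arrays overlapped with each other and were separate from both unheated groups. It was 1.99 ± 0.28 above control (limma adjusted p = 0.000902). The galactosyltransferase-family gene AT1G05170 was 2.53 ± 0.32 above control (limma adjusted p = 0.000502). AT2G18240, of the Rer1 family that returns proteins from the Golgi to the endoplasmic reticulum, was 1.65 ± 0.42 above control (limma adjusted p = 0.0133), a call lost without control replicate 2 (0.0817) or heat then anoxia replicate 2 (0.0764). AT3G18170 was 2.15 ± 0.32 above control (limma adjusted p = 0.00123). AT1G12990, another glycosyltransferase gene, had the deepest anoxia value of the 27 (-2.79) and exceeded control by only 0.94 ± 0.25 in the combined treatment, below the 2-fold limit. It passed that limit without control replicate 1 (1.19, adjusted p = 0.0184) or heat then anoxia replicate 2 (1.05, adjusted p = 0.0474).

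The other genes with the strongest combined response were AT1G75860, the F-box gene AT2G18780, whose family selects proteins for degradation, and the alpha/beta hydrolase gene AT1G23330. AT1G75860 measured 11.35 and 11.50 in heat then anoxia, 11.74 and 11.27 in heat, 5.85 and 5.60 in anoxia, and 6.84 and 6.77 in control. Its heat then anoxia arrays lay between the 2 heat arrays, far above the unheated ones, and exceeded control by 4.62 ± 0.25 (limma adjusted p = 8.52e-06). AT2G18780 and AT1G23330 exceeded control by 4.04 ± 0.27 and 3.83 ± 0.25 (limma adjusted p = 2.05e-05 and 2.01e-05). AT3G05675, with a BTB/POZ domain used in protein recognition, exceeded it by 2.68 ± 0.44 (0.00187). AT2G06000, of the pentatricopeptide repeat family that processes organelle RNA, exceeded it by 1.46 ± 0.23 (0.00152), the protein kinase gene AT5G11020 by 2.45 ± 0.22 (9.85e-05), and AT1G61890, of the MATE family of efflux transporters, by 1.62 ± 0.40 (0.0114). The call of AT1G61890 was lost without control replicate 1 (0.0527) or heat then anoxia replicate 2 (0.0743).

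In 2 of the 27 genes the combined treatment lay nearer the anoxia level. With single arrays left out, 24 to 26 of the 27 lay nearer heat. AT5G10120, a gene of the EIN3 family of ethylene-response transcription factors, measured 3.47 and 3.57 in heat then anoxia, 7.44 and 7.26 in heat, 3.05 and 3.12 in anoxia, and 5.44 and 3.63 in control. Heat alone was high, and both anoxic groups were near background, with the 2 controls far apart. The second control, at 3.63, was itself near background. The fall in anoxia reached 1 only through the first control, at 5.44, and was not called by limma. Heat then anoxia minus heat was -3.83 ± 0.50 (limma adjusted p = 0.00534), and its difference of 0.44 from anoxia was not called (0.52). Against control it was not called (-1.01 ± 0.50, limma adjusted p = 0.13), but it was called lower without control replicate 2 (-1.92, adjusted p = 0.00277). AT3G20240, of the mitochondrial carrier family, measured 5.32 and 5.52 in heat then anoxia, 7.29 and 7.06 in heat, 4.67 and 3.23 in anoxia, and 5.42 and 5.37 in control. Its combined level, at a position of 0.455, overlapped with control and lay between the other groups. Without anoxia replicate 1 it lay nearer heat. Its difference from heat (-1.76 ± 0.42, limma adjusted p = 0.0397) was lost whenever 1 of the same arrays was left out (adjusted p 0.0653 to 0.169). Its difference from anoxia (1.47, limma adjusted p = 0.0291) was lost without anoxia replicate 2 (0.0676) or either heat then anoxia array (0.08 and 0.121).

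Besides these and AT1G12990, 3 further genes were not called against control. BZIP17, a membrane-anchored transcription factor that is released under salt stress and endoplasmic reticulum stress, measured 7.77 and 7.14 in heat then anoxia, 8.19 and 8.04 in heat, 5.67 and 5.57 in anoxia, and 7.27 and 6.82 in control. Its combined arrays overlapped with control and stood above anoxia by 1.83 ± 0.29 (limma adjusted p = 0.00246). AT4G21310 stood 0.22 ± 0.37 above control (limma adjusted p = 0.648), and the proline-rich protein gene AT4G16140 0.75 ± 0.44 above it (0.192). AT4G16140 was called without heat then anoxia replicate 2 (1.45, adjusted p = 0.0196).

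The 46 genes lowered by heat and raised by anoxia did not follow a single stress. The combined treatment left 32 (69.6%) nearer their anoxia level and 14 (30.4%) nearer their heat level. The median position was 0.31, with a range of -0.58 to 1.06. At 0.25 or below lay 21 genes, at 0.75 or above lay 12, and 13 were in between. Against control, 15 were higher (32.6%, where 15.2% of all probe sets were) and 9 lower (19.6%, where 25.4% were), with a median difference of 0.62. With each array centred on its median the split was 20 higher and 6 lower. Several of the 15 calls and of the 9 were lost when 1 array was left out, as given below for each gene. All 15 that were higher lay nearer anoxia, and all 9 that were lower lay nearer heat. Against heat alone, 30 were higher and 0 lower by limma (5.13% and 4.66% of all probe sets, and 33 and 0 genes at an unadjusted p below 0.05), with a median difference of 2.39. The 46 were chosen for low heat values, so these shares are not like for like either. Without the second heat then anoxia array 19 were higher than heat, and without both arrays of high 25S signal 17 were. Against anoxia alone, 2 were higher and 19 lower (12.8% and 17.2% of all probe sets), with a median difference of -0.98. The 46 were also chosen for high anoxia values, so these shares are again not like for like. The 19 include DLAH, for which no test is read below. By the limma calls against heat and against anoxia, 23 genes differed from heat and not from anoxia, 14 from anoxia and not from heat, 7 from both and 2 from neither. Over all probe sets these classes held 3.85%, 24%, 5.95% and 66.2%, but the members' heat and anoxia means lie at least 2 apart by choice, so the shares are not like for like. The heat mean lay below 4 in 20 of the 46 genes and the combined mean in 5, so these differences too depend on the background model.

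**Figure D3:**
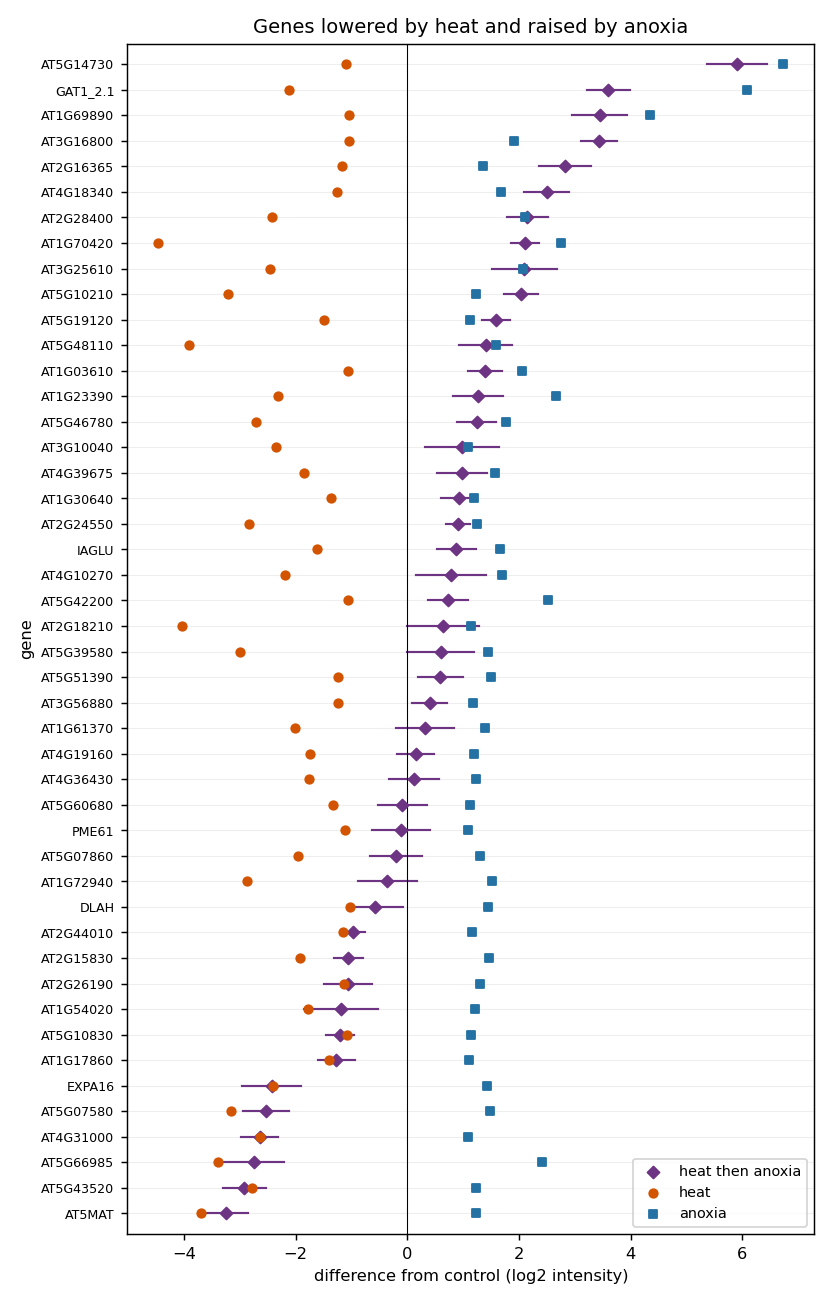
Difference from control (log2 intensity, x axis) of the 46 genes lowered by heat and raised by anoxia, with heat then anoxia as diamonds with the standard error of the limma fit, heat as circles and anoxia as squares. At the top, where AT5G14730 stands at 5.91, the diamonds lie nearer the squares than the circles. The diamond of GAT1_2.1 lies well below its square, and those of AT3G16800 and AT2G16365 lie above theirs. At the bottom, where AT5MAT stands at -3.25, the diamonds lie on or near the circles.

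The 15 genes higher than control in the combined treatment come first. AT1G70420, which encodes a protein with a domain of unknown function, was changed by at least 2.75 in each single stress, the most of the 46. It measured 9.64 and 9.68 in heat then anoxia, 3.04 and 3.15 in heat, 10.04 and 10.56 in anoxia, and 7.50 and 7.61 in control. Heat alone was near background, while the combined treatment lay above control and just below anoxia. Heat then anoxia minus control was 2.10 ± 0.25 (SE; limma adjusted p = 0.000363), minus heat it was 6.57 ± 0.25 (8.45e-05), and minus anoxia -0.64 ± 0.25 (0.0731, not called).

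GAT1_2.1 encodes a glutamine amidotransferase-type protein of nitrogen metabolism. Its values were 9.46 and 9.45 in heat then anoxia, 3.92 and 3.55 in heat, 11.78 and 12.10 in anoxia, and 6.46 and 5.26 in control. The 4 groups were separate, with the combined treatment above control and below anoxia. It exceeded control by 3.60 ± 0.39 (limma adjusted p = 0.000244), and it lay below anoxia (-2.48 ± 0.39, limma adjusted p = 0.00237).

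AT5G14730 had the highest combined response, with 8.62 and 9.92 in heat then anoxia, 2.14 and 2.41 in heat, 9.89 and 10.31 in anoxia, and 2.68 and 4.05 in control. Its heat and control levels were near background, and its combined arrays overlapped with the anoxia arrays. It exceeded control by 5.91 ± 0.54 (limma adjusted p = 0.000104). AT1G69890 exceeded control by 3.45 ± 0.49 (0.000953). Both genes were barely lowered by heat, at -1.09 and -1.05, from control means of 3.37 and 4.07.

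AT3G16800, of the PP2C family of protein phosphatases, and AT2G16365 were the 2 genes higher in the combined treatment than under anoxia alone. AT3G16800 measured 9.65 and 9.43 in heat then anoxia, 5.31 and 4.79 in heat, 8.37 and 7.65 in anoxia, and 5.93 and 6.27 in control. The combined arrays lay above all other arrays, and the groups did not overlap. The difference from anoxia was 1.53 ± 0.32 (limma adjusted p = 0.00848), and that from control was 3.44 ± 0.32 (0.000117). AT2G16365 exceeded anoxia by 1.46 ± 0.47 (limma adjusted p = 0.0412), a call lost without either control (0.0624), anoxia replicate 1 (0.19) or heat then anoxia replicate 2 (0.223), and it exceeded control by 2.82 ± 0.47 (0.0019).

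Of the others, AT2G28400, of a family of small proteins with a domain of unknown function, stood at 2.15 ± 0.37 against control (limma adjusted p = 0.00235). AT3G25610, of the P-type ATPases that flip phospholipids across membranes, stood at 2.10 ± 0.58 (0.0192). AT5G46780, with a VQ motif that binds WRKY transcription factors, stood at 1.25 ± 0.35 (0.0209), and the terpene synthase-family gene AT5G48110 at 1.41 ± 0.48 (0.0413). AT1G23390, a Kelch-repeat F-box protein that directs chalcone synthase, the first enzyme of flavonoid synthesis, to degradation, stood at 1.26 ± 0.45 (0.0489). The last 4 calls rested on single arrays. Without control replicate 1 the adjusted p was 0.0799 for AT3G25610 (1.16), 0.108 for AT5G46780, 0.205 for AT5G48110 and 0.198 for AT1G23390. Without heat then anoxia replicate 2 they were 0.113, 0.122, 0.24 and 0.264 in the same order. AT5G48110 was also lost without either heat array (0.0565), and AT1G23390 without control replicate 2 (0.0839) or either anoxia array (0.0592). The remaining 4, named after their values were seen, were the beta-1,3-glucanase-family gene AT4G18340 (2.50), AT5G10210 (2.04), the aspartyl protease gene AT5G19120 (1.59) and AT1G03610 (1.39), each with a limma adjusted p of 0.00777 or lower. AT1G03610 fell below the 2-fold limit without control replicate 1 (0.98, adjusted p = 0.0418).

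In 9 genes the combined treatment, like heat alone, left the level below control. AT5MAT, which attaches malonate to anthocyanin pigments, measured 4.03 and 4.08 in heat then anoxia, 3.66 and 3.57 in heat, 7.96 and 9.11 in anoxia, and 7.71 and 6.90 in control. Both heated groups were near background, and both unheated groups were well above it. The difference from control was -3.25 ± 0.41 (limma adjusted p = 0.000519) and that from anoxia -4.48 ± 0.41 (0.000195). The other measured gene of the flavonoid list, DFR, the reductase on the way to anthocyanins, stood at -0.31 in heat then anoxia, -0.74 in heat and 1.14 in anoxia and was called in none of them.

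AT5G07580, a transcription factor of the AP2/ERF family, measured 5.29 and 5.22 in heat then anoxia, 5.32 and 3.94 in heat, 9.19 and 9.33 in anoxia, and 7.96 and 7.61 in control. Its heated arrays overlapped and lay below all unheated arrays, with a difference from control of -2.53 ± 0.42 (limma adjusted p = 0.00185). AT5G43520, with a cysteine-rich C1 domain, stood at -2.92 ± 0.39 (limma adjusted p = 0.000667) and AT4G31000, a calmodulin-binding protein of calcium signalling, at -2.65 ± 0.33 (0.000489). In these last 2 genes, both heated groups were below 4 on every array.

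The remaining genes of the 9 besides AT5G66985, described with the hypoxia genes, were named after their values were seen. The expansin gene EXPA16 measured 2.70 on both heat then anoxia arrays, 2.63 and 2.81 in heat, 6.76 and 6.36 in anoxia, and 6.07 and 4.19 in control. It was at background in both heated groups, and the controls were far apart. The rise in anoxia reached 1 only through the second control, at 4.19, and was not called by limma. Heat then anoxia minus control was -2.43 ± 0.53 (limma adjusted p = 0.00697), and -1.49 without control replicate 1. The Kunitz-type protease inhibitor gene AT1G17860 (-1.27), AT2G15830 (-1.06) and AT5G10830 (-1.21) had limma adjusted p of 0.014, 0.0121 and 0.00516. AT1G17860 was lost without control replicate 2 (0.0724) or heat then anoxia replicate 2 (0.081), AT2G15830 without control replicate 1 (0.0616) or heat then anoxia replicate 2 (0.0813), and AT5G10830 fell below 2-fold without control replicate 1 (-0.99).

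**Figure D4:**
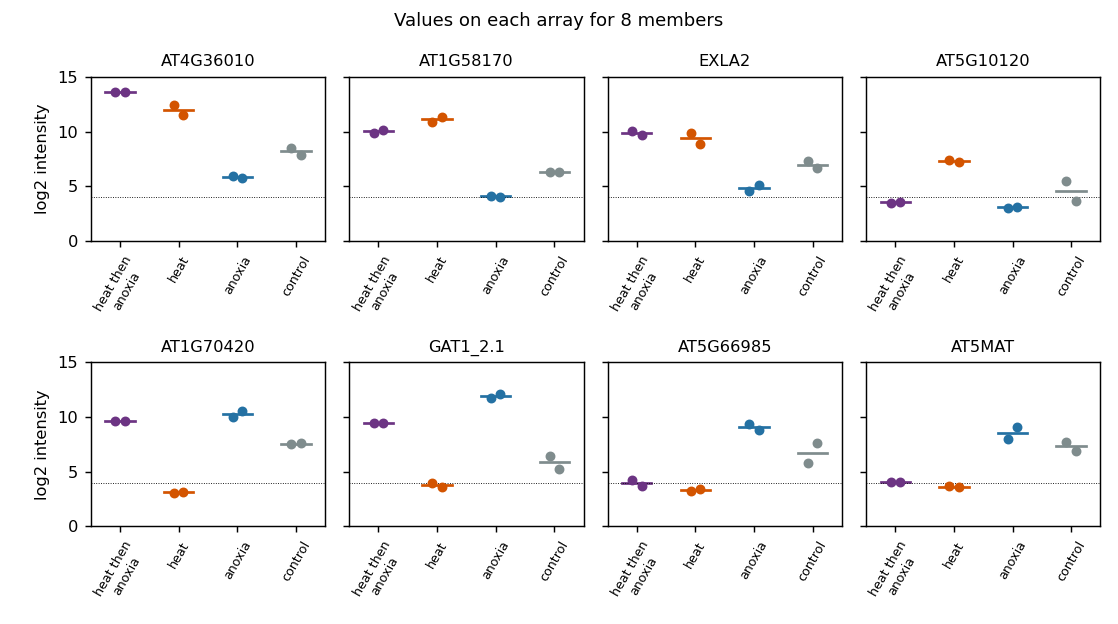
Log2 intensity on each array (points) with the group mean (line) for 4 genes raised by heat and lowered by anoxia (top) and 4 lowered by heat and raised by anoxia (bottom), and a dotted line at the filter minimum of 4. The combined treatment is near the heat level in AT1G58170, EXLA2, AT5G66985 and AT5MAT, above it in AT4G36010, near anoxia in AT5G10120 and AT1G70420, and between in GAT1_2.1.

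Of 47 genes on a list of core hypoxia genes, which rise in most plant tissues when oxygen is short, 25 were measured. The list as a whole had 6 genes higher and 6 lower in heat (10.5% and 17.9% over the array), with a median of -0.39, and 15 higher and 0 lower in anoxia (median 1.90), where the shares over the array were 3.95% and 5.92%. In heat then anoxia 10 were higher than control and 4 lower (15.2% and 25.4% over the array), with a median of 0.98. Of these 25, 5 were members, all lowered by heat, and none was among the 27 genes raised by heat. They were HRA1 (AT3G10040), a trihelix transcription factor that damps the hypoxia response, AT4G10270 of the wound-responsive protein family, AT5G66985, AT5G42200 and AT4G39675. By limma, only AT5G66985 was called in both single stresses. The rise in anoxia was not called in HRA1, AT4G10270 and AT4G39675, and the fall in heat was not called in AT5G42200.

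AT5G66985 measured 4.24 and 3.67 in heat then anoxia, 3.23 and 3.36 in heat, 9.39 and 8.84 in anoxia, and 5.79 and 7.60 in control. Both heated groups were near background, below both controls, and anoxia alone was above them. Heat then anoxia minus anoxia was -5.16 ± 0.54 (limma adjusted p = 0.000374), the deepest of the 46, and minus control it was -2.75 ± 0.54 (0.00437). The other 4 hypoxia genes differed from it. HRA1 measured 7.08 and 7.42 in heat then anoxia, 4.81 and 3.02 in heat, 7.51 and 7.19 in anoxia, and 5.44 and 7.09 in control. The combined arrays overlapped with the anoxia arrays and the second control, and lay above heat by 3.34 ± 0.66 (limma adjusted p = 0.0214).

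AT4G10270 measured 10.12 and 10.18 in heat then anoxia, 8.13 and 6.22 in heat, 11.39 and 10.73 in anoxia, and 8.79 and 9.95 in control, so that the combined arrays lay between control and anoxia. It was above heat by 2.97 ± 0.62 (limma adjusted p = 0.0259), AT4G39675 by 2.83 ± 0.45 (0.01) and AT5G42200 by 1.80 ± 0.36 (0.0226). AT5G42200 was also below anoxia (-1.79, limma adjusted p = 0.00754), at a position of 0.50. Each of these 4 calls against heat was lost when heat replicate 2 was left out (adjusted p 0.0604 to 0.124), and at least 1 heat then anoxia array left out had the same effect. Against control, the 4 genes stood at 0.73 to 0.98 and none was called. In HRA1, AT4G10270 and AT5G66985 the second control exceeded the first by over 2-fold. This was so in 7 of the 46 genes (15.2%), against 4.1% of all probe sets. In HRA1 the anoxia arrays, at 7.51 and 7.19, lay just above the second control at 7.09. Its anoxia change reached 1 only through the first control, at 5.44. The choice was repeated without each control array, as given below with the dependence on the processing.

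Between the extremes, 22 genes were not called against control. IAGLU, an enzyme that joins glucose to the hormone auxin, measured 9.01 and 9.69 in heat then anoxia, 6.83 and 6.87 in heat, 10.20 and 10.05 in anoxia, and 8.01 and 8.93 in control. The combined arrays lay above both controls and below both anoxia arrays. They exceeded heat by 2.50 ± 0.36 (limma adjusted p = 0.00715, and 0.0501 without heat then anoxia replicate 2) and control by 0.88 ± 0.36 (0.0729), where a call appeared without control replicate 2 (1.34, adjusted p = 0.0253). DLAH, which passed the filter through its anoxia arrays alone, measured 2.63 and 3.41 in heat then anoxia, 2.49 and 2.63 in heat, 4.32 and 5.76 in anoxia, and 3.29 and 3.89 in control, and no test is read for it, although the counts of the 46 include it. The pair that differed from neither single stress was AT5G60680 and the pectin methylesterase gene PME61, named after their values were seen. AT5G60680 was called lower than anoxia without either heat array (-1.21, limma adjusted p = 0.029). PME61 measured 4.67 and 5.69 in heat then anoxia, 3.63 and 4.73 in heat, 6.06 and 6.71 in anoxia, and 5.75 and 4.84 in control, so that the combined arrays overlapped with heat and with control. The same uncalled class held 2 class III peroxidase genes, AT5G39580 and AT4G36430, whose enzymes cross-link or loosen cell walls, at 0.59 ± 0.59 and 0.12 ± 0.45 against control (limma adjusted p = 0.432 and 0.844). They were likewise named after their values were seen.

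The contrast between the 2 directions was also present in probe sets chosen only for a difference of at least 2 between the heat and anoxia means, which include the members. Of 376 named probe sets with heat above anoxia by that much, 359 (95.5%) lay nearer heat in the combined treatment, with a median position of 1.00. Of 320 with heat below anoxia, 167 (52.2%) lay nearer heat, with a median position of 0.53. The 27 genes raised by heat, at 92.6%, were close to their comparison set. The 46 genes lowered by heat were nearer heat in 30.4%, and this difference from 52.2% was not tested.

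**Figure D5:**
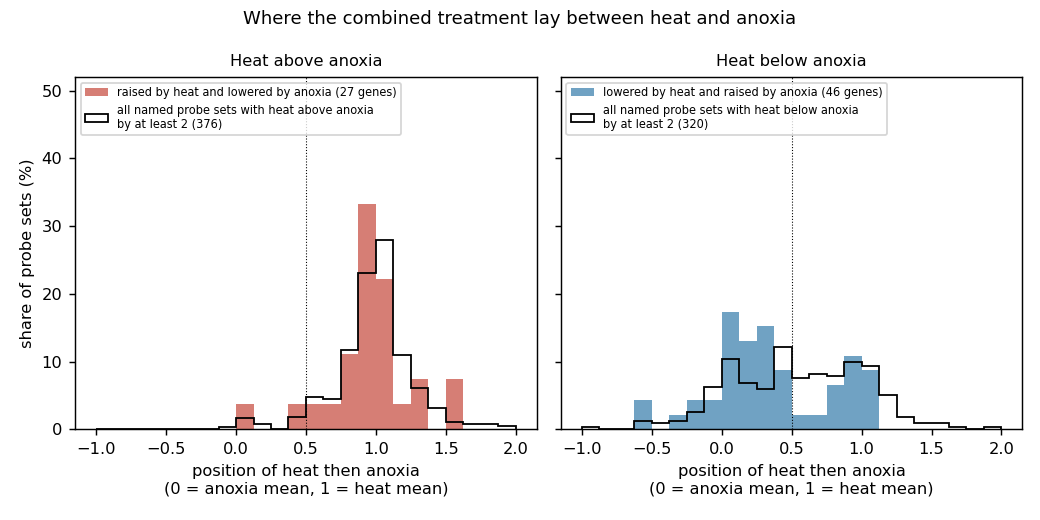
Share of probe sets (%, y axis) by the position of the heat then anoxia mean on a scale with 0 at the anoxia mean and 1 at the heat mean (x axis), for the members (filled) and for all named probe sets whose heat and anoxia means differ by at least 2 (outline; values beyond -1 and 2 are drawn in the end bins). The 27 genes raised by heat gather near 1, with a median of 0.97, and the 46 genes lowered by heat are spread from -0.58 to 1.06.

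The combined difference was also set beside the sum of the single differences from control, which share the control arrays. For the 27 genes raised by heat, the median sum was 0.40 and the median combined difference was 2.15, and 25 genes lay above their sum. For the 46 genes lowered by heat, the median sum was -0.37 and the median combined difference 0.62, with 30 genes above their sum and 16 below. The choice sets each single difference at 1 or more in size. A gene close to its heat or its anoxia level therefore lies on a fixed side of its sum. These counts follow the positions given above, and nothing further is read from them. Of the list of heat shock proteins, 11 genes were measured and all 11 were higher than control in heat then anoxia, in heat and in anoxia (15.2%, 10.5% and 3.95% of all probe sets), so that none is a member. The 14 members nearer heat and the 32 nearer anoxia had median heat differences of -1.85 and -1.91 and median anoxia differences of 1.23 and 1.54. The largest anoxia differences, 6.74 in AT5G14730, 6.09 in GAT1_2.1 and 4.35 in AT1G69890, were all in genes nearer anoxia. Among genes nearer heat the largest was 2.41, in AT5G66985. The control means of the 14 and the 32 had medians of 6.36 and 6.60.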

How the data were processed

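RNA of whole seedlings was hybridised to 8 ATH1 arrays. The authors deposited linear intensity values from GCRMA, per the submitters' processing notes, which uses probe sequence in its background model, and whose version is not given in the sources used here. Arrays had median intensities of 36.8 to 53.2, and their number limits the precision. Deposited intensities were converted to log2 and not normalized again. A limma 3.58.1 model (R 4.3.3) was fitted over all 4 groups with empirical Bayes variances, 4 residual degrees of freedom and Benjamini-Hochberg adjustment within each comparison over the 14535 probe sets with log2 of at least 4 on at least 2 arrays. A call needs adjusted p below 0.05 and at least a 2-fold difference. The fit was also run on simulated data with known changes in the heat then anoxia group only. That simulation held no choice of genes on shared arrays, so it does not test the counts among members. Tables and figures were made with Python 3.11.15, pandas 2.3.3 and matplotlib 3.10.9.

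Genes were named through the platform annotation and RefSeq (TAIR10.1), with 1 symbol for 13513 probe sets and several for 503. Protein families of genes known by locus tag are background knowledge, not read from the files. The members and the 23 gene lists (324 loci, of which 64 were measured) were chosen with earlier results of these data known. Genes were named in each direction as the 10 with the largest smaller change, the 5 with the highest and the 5 with the lowest combined difference from control, the gene at either side of the threshold, and members of lists. Of the lists, core hypoxia held 5 members, flavonoid and anthocyanin 1, and all others 0. Alternatives were quantile normalization, median centring, no filter, a filter at 6, a size of 1.5, an intensity trend, only the groups compared, a replicate block, no fold limit, removal of cross-hybridising probe sets, leaving out each array and, chosen after seeing the data, both arrays of high 25S signal left out.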

Additional observations from a re-analysis of the deposited data

How the results depend on the processing

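Requiring each change to reach 1.5 left 8 genes raised by heat and 12 lowered by heat. Leaving out single arrays gave 23 to 41 and 40 to 70 members, with 41 and 70 without anoxia replicate 1, which kept 21 of the 27 and 43 of the 46. Over all single arrays left out, 21 to 25 of the 27 and 32 to 43 of the 46 were kept, the 32 without control replicate 1. Median centring gave 29 members raised by heat and 35 lowered by heat. Of the 27 and the 46 it kept 22 and 31. Among the 27 genes, the number lower in heat then anoxia than in control was 0 to 1 and than in heat 1 to 3 with single arrays left out, and 1 were lower than heat without both arrays of high 25S signal. Among the 46, the number higher than heat was 19 to 31 with single arrays left out and 17 without those 2 arrays, where fewer arrays remain. The labels give no shared batch for arrays of one replicate number, and with only 2 numbers a pairing cannot be settled from the data: the differences between replicates correlated at 0.022 to 0.298 over the 6 pairs of groups. With the replicate block, 21 and 15 genes were higher than control, 10 of the 46 were lower, and 31 of the 46 were higher than heat, so that the block moved no count by over 1.5 times. No result reversed. The main limits are 2 arrays in each group, levels near background in the lower group of many genes, and comparisons that share arrays with the choice of genes.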

Other observations

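The 57 probe sets without the name of 1 nuclear gene that met the numeric criteria can be set beside the members. Of 23 raised by heat and lowered by anoxia, 21 (91.3%) lay nearer heat in the combined treatment, with a median position of 0.95, and by limma 16 were higher than control (15.2% of all probe sets). Of 34 lowered by heat and raised by anoxia, 7 (20.6%) lay nearer heat, with a median position of 0.21, and by limma 12 were higher than control and 5 lower (15.2% and 25.4% of all probe sets). These probe sets come from the same arrays as the members and were chosen by the same values.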
